A study of Homo sapiens with 6 samples.

Results

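The genes described here build epithelial cell contacts and the keratin cytoskeleton. The set was fixed as a list of 41 symbols: 8 claudins, 7 other tight junction genes, 7 adherens junction genes, 8 desmosome and plakin genes, 7 keratins and 4 genes of epithelial surface, splicing and transcription. A member was measurable where the deposited table of normalized counts holds a row with its Ensembl identifier, which was the case for 32 of the 41. Of these, 31 had a mean of at least 10 normalized counts over all libraries and entered the test, out of 21703 features tested in all. The gene CDH17 had a row but lay under this limit.

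RNA was sequenced from SW480 cells, which come from a human adenocarcinoma of the colon. SW480-KD1 cells, labelled SW480-45, carried Cas9 and a guide RNA against HPSE, the gene of the heparan sulfate-cleaving enzyme heparanase. SW480-NC cells carried Cas9 and a control guide. Both guides were delivered by a lentivirus that also encodes EGFP, so that both lines share the nuclease, the reporter and the drug selection. Each line had 3 libraries from independent experiments, and whether the knockdown line is 1 clone or a pool is not given in the sources used here. The comparison asks how the mRNA of junction and keratin genes differed between an HPSE-knockdown colorectal cancer line and its control. Only 1 knockdown line was sequenced, so an effect of the guide and a difference between the lines from another source cannot be told apart. In bulk RNA, fewer cells expressing a gene and less RNA per cell cannot be told apart either.

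The libraries held 33221323 to 39802365 reads. HPSE itself had 136, 172 and 146 normalized counts in SW480-KD1 and 269.9, 295 and 246 in SW480-NC, so the lines did not overlap. Its log2 fold change was -0.83 (SE 0.14), with a limma adjusted p of 0.0547. Among the epithelial markers, EPCAM, KRT8 and KRT19 were high in all libraries, whereas CDH1 and KRT18 have no row. Of the markers of intestinal epithelium, LGALS4, VIL1 and HNF4A were present, and CDHR5 had 89.8 to 192 counts. CDX2 had 19.0 to 40.3 counts, GPA33 and FABP1 had at most 17.4, and CDX1 has no row. VIM, vimentin, which SW480 cells are generally described as expressing, had only 36.7 to 61.4 counts. The identity of the line was not tested. The fibroblast, endothelial and leukocyte markers that have a row were summed for each library. The fibroblast markers COL3A1, PDGFRA and DCN have no row and were not measured. The same holds for the endothelial markers KDR and EMCN and the leukocyte markers PTPRC, CD3E and CD68. The fibroblast markers reached 231 to 387 counts, mostly from COL1A1 (198 to 359), with PDGFRB at 10.5 to 49.9 and COL1A2 at most at 1.05. The endothelial markers reached 25.1 to 54.6 counts. The leukocyte sum of 59489 to 71989 was almost entirely LYZ, lysozyme, which epithelial cells can also make, and CD14 had at most 46.7.

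Epithelial cells are held together by a chain of junctions. Tight junctions seal the space between cells. Claudins form their strands, and scaffold proteins such as TJP1 and cingulin tie the strands to actin. Adherens junctions join actin networks through E-cadherin and the catenins. Desmosomes join keratin filaments through the desmosomal cadherins, plakoglobin, plakophilins and desmoplakin. Simple epithelia pair the type II keratin KRT8 with the type I keratins KRT18, KRT19 and KRT20, and KRT20 is a marker of differentiated cells of the intestinal lining.

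Most of the measurable members differed little between the lines. With an adjusted p under 0.05, 2 of 31 members (6.45%) were called, KRT20 and the plakin gene PPL, both lower in SW480-KD1. Over all features tested, 174 (0.802%) were called, 72 of them higher (0.332%) and 102 lower (0.47%). The share depends on expression, and among the 12466 features that average 100 counts or more it was 1.27%. No member was called by limma, edgeR or DESeq2 with the further demand of a 2-fold change, which 0.24% of all features met in limma. The median log2 fold change of the tested members was -0.03, beside -0.0048 for all features, and 24 of the 31 members lay within 0.25 of 0 on the log2 scale. The 95% interval of the fold change lay inside a 2-fold change in either direction for 27 of 31 members, the exceptions being CLDN3, CLDN4, TJP3 and KRT23. At an unadjusted p under 0.05 there were 6 members (19.4%), against 16.2% of all features and 21.0% of those averaging 100 or more. They were TJP3 and CGN, higher in SW480-KD1 as were 8.1% of all features, and KRT20, PPL, DSC2 and KRT8, lower as were 8.15%. For 11 members (35.5%) the libraries of the lines did not overlap, against 23.4% of all features and 28.2% of those averaging 100 or more. Of these members 4 were higher and 7 lower in SW480-KD1, beside 11.4% and 12.0% of all features. For features averaging 100 or more the shares were 12.5% higher and 15.7% lower. A single gene in this design cannot go below p = 0.1 in an exact permutation test.

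**Figure D1:**
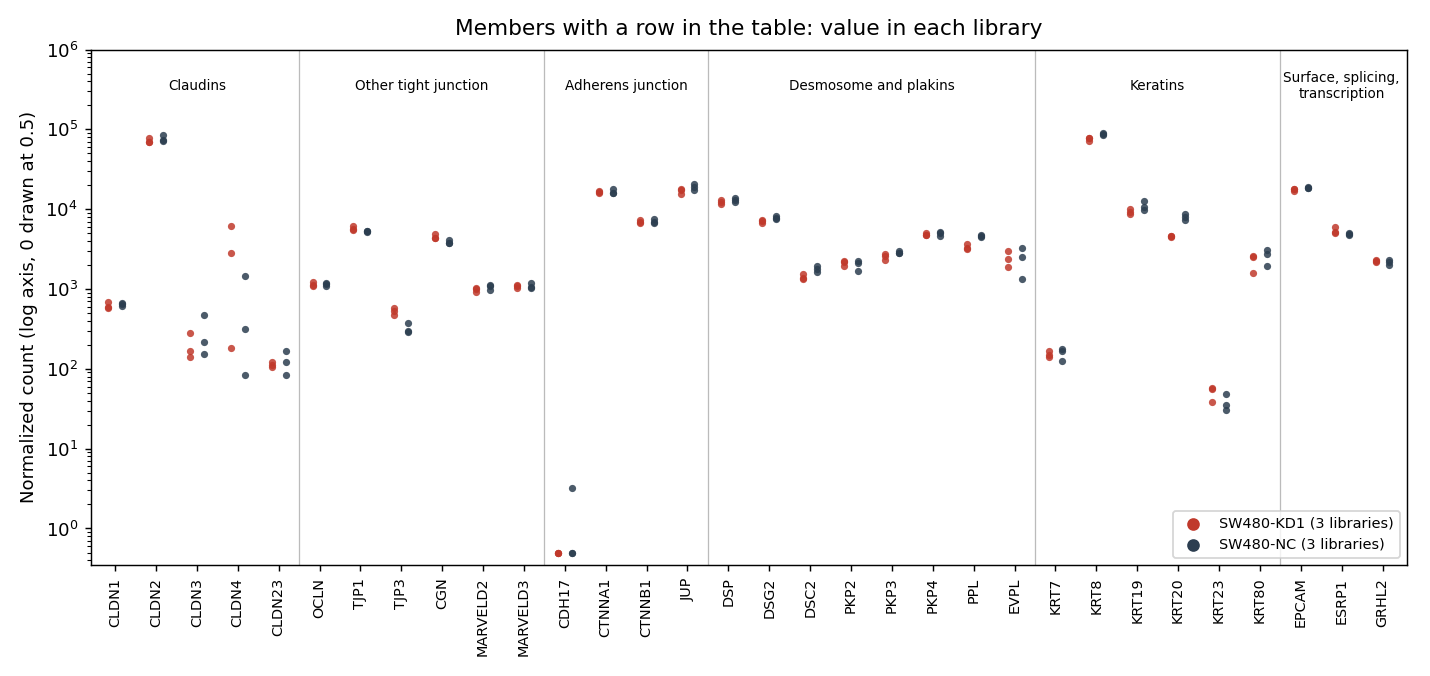
Normalized counts of the 32 members with a row in each library, on a log axis, with points for the 3 SW480-KD1 and the 3 SW480-NC libraries and values of 0 (CDH17) drawn near the foot. Among the 31 tested members levels run from under 100 counts for KRT23 to between 70496 and 90059 for KRT8, and the libraries of the lines overlap for 20 of the 31 genes, with CLDN4 spread most widely within both lines.

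Promoters of 4 of the genes that carry the results, but not of PPL and KRT13, are shown first, as the 250 bases before the annotated start of transcription in RefSeq on GRCh38.p14, read 5′ to 3′ along the gene. KRT20 is the member with the clearest difference, and its promoter is at chr17:40885243-40885492 on the minus strand. PERP, a desmosomal gene outside the set that was also lower, has its promoter at chr6:138107420-138107669 on the minus strand. CGN and TJP3 are shown as the members with higher counts in SW480-KD1 at an unadjusted p under 0.05. Their promoters lie on the plus strand, at chr1:151511137-151511386 for CGN and, for the 2 annotated starts of TJP3, at chr19:3708134-3708383 and chr19:3721487-3721736. Capitals mark matches to 5 motifs searched on both strands. They are the E-box CAGGTG, the AP-1 motif TGANTCA, the KLF motif CACCC, the CDX motif TTTAT and the GRHL motif AACCNGTT.
KRT20: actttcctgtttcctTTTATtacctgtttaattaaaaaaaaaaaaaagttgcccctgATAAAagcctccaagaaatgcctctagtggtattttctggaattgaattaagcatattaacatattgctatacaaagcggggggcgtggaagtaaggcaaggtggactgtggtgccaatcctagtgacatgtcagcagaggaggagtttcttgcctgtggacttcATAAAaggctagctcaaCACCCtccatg
PERP: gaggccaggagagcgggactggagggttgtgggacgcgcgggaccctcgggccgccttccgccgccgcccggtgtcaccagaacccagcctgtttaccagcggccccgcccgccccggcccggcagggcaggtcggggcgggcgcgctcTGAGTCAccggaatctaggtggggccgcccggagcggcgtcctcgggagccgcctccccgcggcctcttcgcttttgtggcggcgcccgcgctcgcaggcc
CGN: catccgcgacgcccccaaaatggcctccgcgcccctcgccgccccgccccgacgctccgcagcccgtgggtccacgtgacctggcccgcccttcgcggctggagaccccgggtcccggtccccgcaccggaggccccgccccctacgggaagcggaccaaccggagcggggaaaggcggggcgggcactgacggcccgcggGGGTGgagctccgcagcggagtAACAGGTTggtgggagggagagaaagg
TJP3, start 1: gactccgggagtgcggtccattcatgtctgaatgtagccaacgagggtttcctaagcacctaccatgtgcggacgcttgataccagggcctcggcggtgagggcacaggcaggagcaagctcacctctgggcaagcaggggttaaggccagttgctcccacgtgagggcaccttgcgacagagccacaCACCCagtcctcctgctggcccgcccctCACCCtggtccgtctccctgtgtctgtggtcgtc
TJP3, start 2: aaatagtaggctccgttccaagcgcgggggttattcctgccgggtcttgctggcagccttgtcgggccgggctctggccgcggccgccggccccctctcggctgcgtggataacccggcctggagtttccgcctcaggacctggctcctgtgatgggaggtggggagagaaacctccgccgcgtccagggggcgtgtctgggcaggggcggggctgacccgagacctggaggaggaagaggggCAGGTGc

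In the KRT20 promoter the CDX motif stood 235, 193 and 28 bases before the start and the KLF motif 11 bases before it. The PERP promoter held the AP-1 motif 101 bases before the start. In CGN the KLF motif began 49 and the GRHL motif 27 bases before the start. The first TJP3 start had the KLF motif at 62 and 34 bases, and the other had the E-box at 7 bases. After removal of repeated sequences, 34788 promoters of this length remained. Of these, 32.8% held the CDX motif, 54.7% the KLF motif, 17.5% the E-box, 6.59% the AP-1 motif and 1.49% the GRHL motif. For 21 members, 34 promoters were found, and among these repeated sequences were not removed. The CDX motif was in 5 of the 34 (14.7%), the KLF motif in 25 (73.5%), the E-box in 9 (26.5%), the AP-1 motif in 3 (8.82%) and the GRHL motif in 1 (2.94%). These are matches of letters, and binding was not measured.

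Of the keratins, 6 of 7 were measurable, and 5 of the 6 had a lower mean in SW480-KD1, with a median log2 fold change of -0.22. KRT20 (ENSG00000171431) lies on the minus strand of chromosome 17, at chr17:40875941-40885227 in GENCODE 29, and its exons overlap no other annotated gene. Its normalized counts were 4452, 4555 and 4614 in SW480-KD1 and 7349, 7919 and 8587 in SW480-NC. Every SW480-NC library was above every SW480-KD1 library, and the SW480-KD1 libraries lay within 1.04-fold of each other. The means were 4540.5 ± 82.3 for the knockdown and 7952 ± 619 for the control (SD, n = 3 each), so SW480-KD1 held 57.1% of the control level. The log2 fold change was -0.81 (SE 0.07, 95% interval -0.98 to -0.64), and the limma adjusted p was 0.00719. Each fit with 1 library left out still called KRT20, with an adjusted p of 0.0127 to 0.0451.

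KRT8, the type II keratin of simple epithelia, had the highest level of the keratins, both in counts and per kilobase of exon. It had 77246, 78795 and 70496 counts in SW480-KD1 and 90059, 84092 and 88079 in SW480-NC. The lines did not overlap, but the difference was small, with a log2 fold change of -0.21 (SE 0.06), and it was not called (limma adjusted p = 0.141). KRT8 shares 525 exon bases with KRT18 on the opposite strand, and the library kit does not mark strand, so that reads there cannot be assigned to one of the pair. KRT8 also has 50 annotated pseudogenes. Of these, 25 have a row, with 313 to 759 counts in sum per library.

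KRT19, a type I keratin that lacks the usual tail domain, had 9352 ± 758 counts in SW480-KD1 and 11078 ± 1438 in SW480-NC (SD, n = 3), and its libraries overlapped. KRT80 had 1568 to 2607 counts in SW480-KD1 and 1961 to 3111 in SW480-NC. KRT7 and KRT23 were low, at 124 to 179 and 30.3 to 57.8 counts in all libraries. Per kilobase of exon, KRT8 made up 54.2% to 62.5% of the measurable keratin level. The divisor was all merged annotated exons, 6881 bases for KRT8 and 1846 for KRT20, so these shares depend on the annotation. The share of KRT20 was 13.2% to 14.4% in SW480-KD1 and 18.3% to 19.7% in SW480-NC, with no overlap.

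A list of keratin genes outside the set was also read. It held 29 hair, epidermal and other keratins, of which 17 had a row and 10 were tested. The list is not complete. KRT39, the neighbour of KRT23 on chromosome 17, has a row but was not in it. KRT13, a type I keratin of stratified mucosa, was called lower. It had 40.1, 57.8 and 43.3 counts in SW480-KD1, while the SW480-NC libraries had 128, 134 and 142, and no library of one line reached those of the other. The log2 fold change was -1.51 (SE 0.19, limma adjusted p = 0.0243). Only 1 of the 6 fits with a library left out called it, with adjusted p values of 0.0355 to 0.0949. Type I keratin genes lie together on chromosome 17, except KRT18, which lies beside KRT8 among the type II genes on chromosome 12. Over members and listed keratins only, 6 of 9 tested genes on chromosome 17 had a log2 fold change below 0 (median -0.24). The called pair KRT20 and KRT13 are both there. On chromosome 12 the log2 fold change was below 0 for 3 of 7 tested genes (median 0.29). The genes above 0 there, KRT4, KRT5, KRT6A and KRT86, averaged only 10.1 to 24.6 counts, and each of their 95% intervals included 0. Those below 0, KRT7, KRT8 and KRT80, averaged 154 to 81461 counts. Limma and edgeR called none on chromosome 12. DESeq2 called none either, but gave no adjusted p for KRT4, KRT5, KRT6A and KRT86. In limma 1 of the 7 genes (14.3%), KRT8, had an unadjusted p under 0.05, beside 16.2% of all features. A difference between the clusters was not tested.

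**Figure D2:**
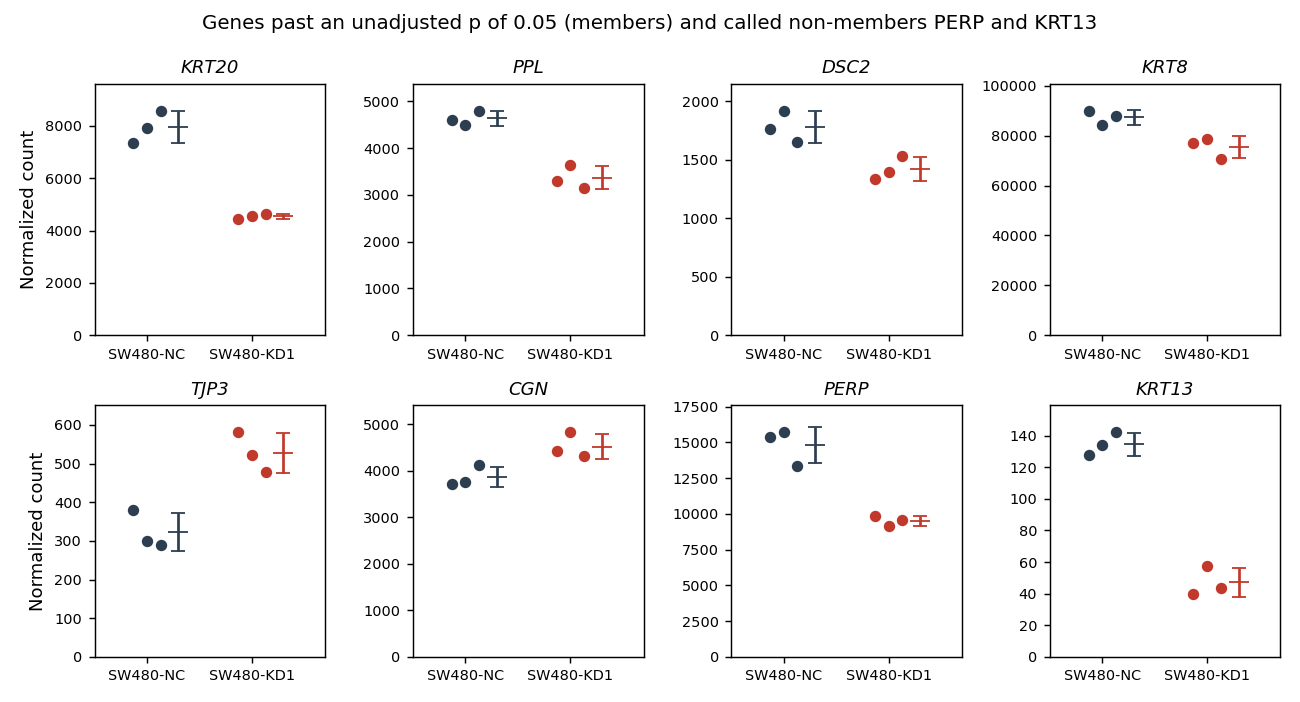
Normalized counts of the members with an unadjusted p under 0.05 and of PERP and KRT13, called outside the set, one panel per gene. Each panel has 1 point per library and bars for the mean and SD of 3 libraries per line. The libraries of KRT20, PPL, PERP and KRT13 are lower in SW480-KD1 without overlap, and those of TJP3 and CGN are higher without overlap.

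All 8 desmosome and plakin genes were measurable, and 6 of them had a lower mean in SW480-KD1, with a median log2 fold change of -0.11. PPL (ENSG00000118898) encodes periplakin, a cytolinker that binds keratin filaments, and lies at chr16:4882507-4960741 on the minus strand. It had 3304, 3639 and 3149 counts in SW480-KD1 and 4597, 4499 and 4800.1 in SW480-NC. All SW480-KD1 libraries were below all SW480-NC libraries. The means were 3364 ± 250.1 and 4632 ± 154 (SD, n = 3), which puts SW480-KD1 at 72.6% of the control. The log2 fold change was -0.46 (SE 0.08, 95% interval -0.64 to -0.29), with a limma adjusted p of 0.0481, just inside the threshold. The call was lost in every fit with 1 library left out, where the adjusted p was 0.0760 to 0.191, and the log2 fold change stayed between -0.52 and -0.42. With edgeR on the recovered reads the adjusted p was 0.0519, and with DESeq2 it was 0.00114.

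The desmosomal cadherins DSG2 and DSC2 join neighbouring cells across the gap. DSC2 had 1339, 1394 and 1535 counts in SW480-KD1 and 1766, 1921 and 1654 in SW480-NC. The lines did not overlap, and the log2 fold change of -0.32 (SE 0.09) was not called (limma adjusted p = 0.164). DSG2 had 6804 to 7351 counts in SW480-KD1 and 7540.0 to 8113 in SW480-NC, again without overlap, with an adjusted p of 0.336. DSP, desmoplakin, which links the desmosomal plaque to keratin, had the highest level of the class in counts and per kilobase. Its counts were 11757, 12989.5 and 12171 in SW480-KD1 and 12390.1, 12999 and 13678 in SW480-NC, and the lines overlapped. Of the plakophilins, the armadillo proteins of the plaque, PKP3 had 2545 ± 219 counts in SW480-KD1 and 2891 ± 84.9 in SW480-NC, without overlap. PKP2 and PKP4 overlapped, with log2 fold changes of 0.09 and -0.03. EVPL, envoplakin, which pairs with periplakin, did not separate the lines, with 1866 to 2987 counts in SW480-KD1 and 1337 to 3227 in SW480-NC. In total, 4 of the 8 genes (DSG2, DSC2, PKP3 and PPL) had libraries that did not overlap, all lower in SW480-KD1. In this way 12.0% of all features lay lower, and 15.7% of those averaging 100 or more.

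PERP, a membrane protein of desmosomes that also responds to p53, was not in the set and was read with the other desmosomal genes. It had 9819.9, 9158 and 9591 counts in SW480-KD1 and 15389, 15706 and 13364 in SW480-NC. The libraries did not overlap. The mean of SW480-KD1 was 64.3% of the control, and the log2 fold change was -0.63 (SE 0.08, limma adjusted p = 0.0185). It was called in 1 of the 6 fits with a library left out, with adjusted p values of 0.0145 to 0.0827. The other tested gene of this list, the plakophilin PKP1, had 409.7 ± 33.0 counts in SW480-KD1 and 319 ± 36.5 in SW480-NC (SD, n = 3), and was not called (limma adjusted p = 0.231).

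Of the tight junction genes other than claudins, 6 were measurable. Their median log2 fold change was 0.06, and limma and edgeR called none of them. In limma 2 of the 6 (33.3%) had an unadjusted p under 0.05, beside 16.2% of all features. DESeq2, which called 3.48% of all features, called TJP3. TJP3, or ZO-3, is a scaffold of the same family as TJP1 and lies at chr19:3708109-3750813 on the plus strand. It had 581, 523 and 479 counts in SW480-KD1 and 379.7, 300.4 and 288 in SW480-NC. The lines did not overlap, and SW480-KD1 held 163% of the control mean. The log2 fold change was 0.71 (SE 0.14, 95% interval 0.39 to 1.04), and the limma adjusted p of 0.0814 did not pass. DESeq2 on the recovered reads gave an adjusted p of 0.00209. The gene APBA3, on the opposite strand, ends 5 bases from TJP3 and has no row, so reads of its transcripts could not be followed.

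CGN, cingulin, a cytoplasmic linker of tight junctions to actomyosin, had the highest level per kilobase among these genes. It had 4418, 4824 and 4304 counts in SW480-KD1 and 3724, 3748 and 4120.4 in SW480-NC, without overlap. Its log2 fold change was 0.22 (SE 0.08, limma adjusted p = 0.222). TJP1, or ZO-1, had the highest mean count, with 5459, 6157 and 5616 in SW480-KD1 and 5282, 5331 and 5222 in SW480-NC, also without overlap but with an adjusted p of 0.427. OCLN, occludin, and the related tetraspan proteins MARVELD2 and MARVELD3 had means of 982 to 1144 counts in both lines and log2 fold changes between -0.13 and 0.00. Outside the set, 18 other tight junction genes were tested. None was called with limma or edgeR. DESeq2 called none either, but gave no adjusted p for CLDN5, CLDN9, CLDN18, CLDN20, JAM2 and JAM3. In limma 2 of the 18 (11.1%) had an unadjusted p under 0.05, beside 16.2% of all features. The smallest p among them was that of CGNL1, paracingulin, with a log2 fold change of 0.31 (SE 0.09, limma adjusted p = 0.173).

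**Figure D3:**
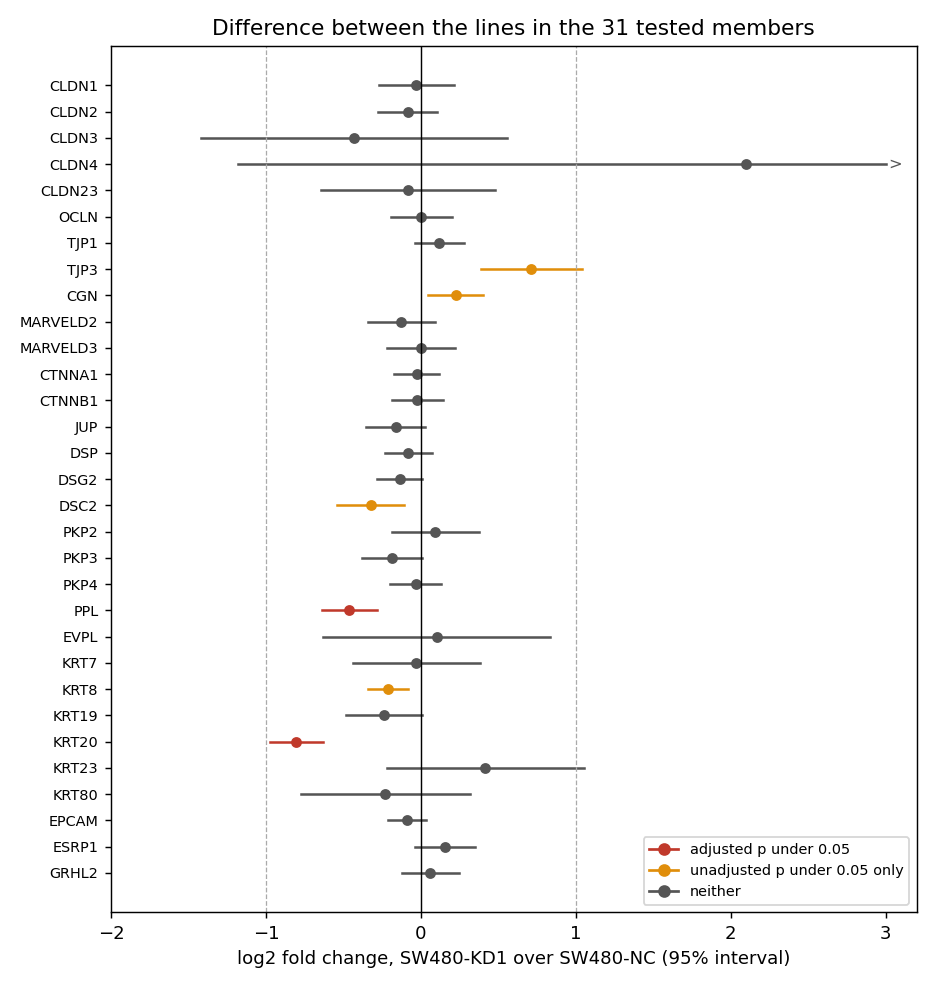
Log2 fold change of SW480-KD1 over SW480-NC for each tested member, grouped by class, with 95% intervals from limma. Most members sit near 0 with short intervals, KRT20 and PPL lie below 0 with an adjusted p under 0.05, and CLDN4 has an interval from -1.18 to 5.38.

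Of the 8 claudins, 5 were measurable. None was called with limma, edgeR or DESeq2, and 0 had an unadjusted p under 0.05 in limma. CLDN2, a claudin that forms pores for cations and water, held 92.4% to 98.5% of the measurable claudin level per kilobase. Its counts were 69659.5, 76966 and 68471 in SW480-KD1 and 70850.1, 72732 and 85140.0 in SW480-NC. The lines overlapped, and the 95% interval of the log2 fold change was -0.27 to 0.10. CLDN2 shares 341 exon bases with RIPPLY1 on the opposite strand. CLDN1, a sealing claudin, had 583 to 695 counts, with no separation of the lines. CLDN23 had 84.8 to 165.

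CLDN4, a claudin that tightens the paracellular seal, stood apart by its spread and is singled out for that after its values were seen. Its counts were 180.3, 2843 and 6109.5 in SW480-KD1 and 84.7, 1469 and 316 in SW480-NC. The highest library of a line was 33.9 times the lowest in SW480-KD1 and 17.3 times in SW480-NC. The mean log2 fold change was 2.10, the largest among the members, but its 95% interval was -1.18 to 5.38 and its limma adjusted p was 0.505. With 1 library left out the log2 fold change ranged from 1.07 to 3.61. The SD within a line was 2.38 on the log2 scale, beside a median of 0.132 over the 12466 features that average 100 counts or more. Of these features, 45 including CLDN4 itself had an SD at least as large. CLDN3, the neighbouring claudin gene on chromosome 7, 29271 bases away, varied less. It had 277, 165 and 140.4 counts in SW480-KD1 and 476, 217 and 153 in SW480-NC. The library with the most CLDN3 counts, SW480-NC replicate 1, had the fewest CLDN4 counts. METTL27, 1896 bases from CLDN4 on its other side, has no row.

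**Figure D4:**
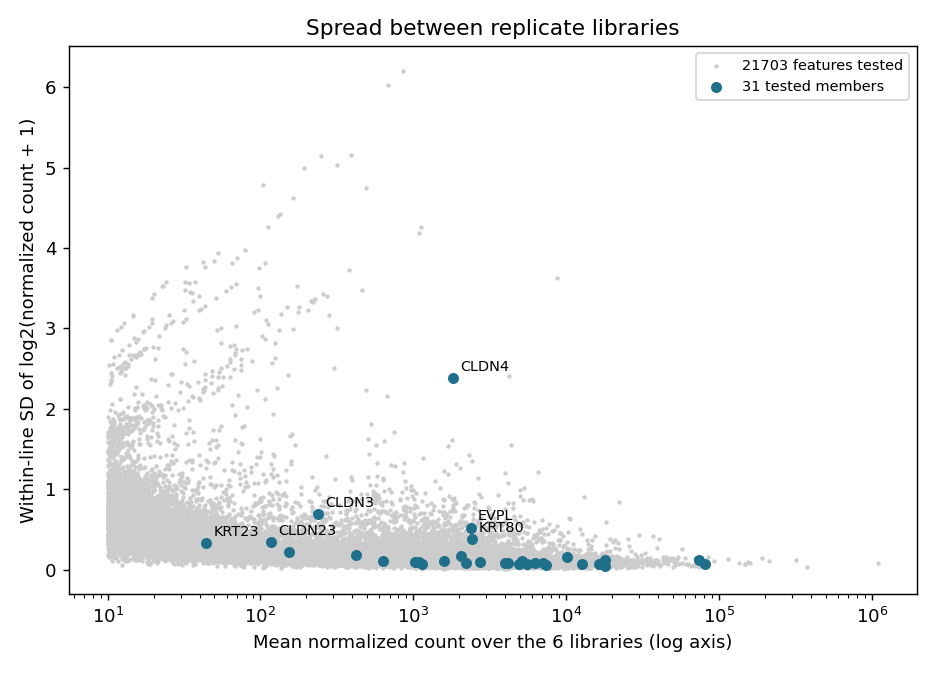
Spread between the libraries of a line, as the SD of log2(normalized count + 1), against the mean level for all 21703 features tested, with the members marked. CLDN4 lies far above the other members, at an SD of 2.38, while CLDN3 and EVPL are the next widest at 0.69 and 0.52.

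In the adherens junction class, 3 members were tested and their log2 fold changes were -0.16 to -0.02. JUP, plakoglobin or gamma-catenin, which serves both adherens junctions and desmosomes, had the highest level, with 56.5% to 63.6% of the class per kilobase. Its counts were 17299.9, 18054 and 15499 in SW480-KD1 and 20412, 17453 and 19028 in SW480-NC, and the lines overlapped (limma adjusted p = 0.377). CTNNA1, alpha-catenin, which links cadherin complexes to actin, had 16278 ± 429.6 and 16618 ± 1047 counts (SD, n = 3). CTNNB1, beta-catenin, which also carries Wnt signals, had 6691 to 7288 and 6777 to 7634. CDH17, the liver-intestine cadherin, was at 0 in all libraries but SW480-NC replicate 3, where it had 3.18 normalized counts. Outside the set, 12 other adherens junction genes were tested. With limma and edgeR none was called, and 5 (41.7%) had an unadjusted p under 0.05 in limma. That share was 16.2% over all features and 21.0% over those averaging 100 or more. DESeq2, which called 3.48% of all features, called NECTIN4 (adjusted p = 0.00962) and CDH24 (adjusted p = 0.00604). NECTIN4, a nectin that starts cell contacts, had the smallest p in limma, with 321, 319 and 350.5 counts in SW480-KD1 and 234, 194 and 221 in SW480-NC and a limma adjusted p of 0.0814.

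Of the surface, splicing and transcription genes, EPCAM, the epithelial cell adhesion molecule, had 17960.0, 16775 and 17956 counts in SW480-KD1 and 18783, 18496 and 18692 in SW480-NC. All SW480-NC libraries were above those of SW480-KD1, yet the difference was only -0.09 on the log2 scale (SE 0.05, 95% interval -0.21 to 0.03) and was not called (limma adjusted p = 0.454). ESRP1, which directs epithelial splicing, had 5087 to 6051 counts in SW480-KD1 and 4705 to 5004 in SW480-NC, without overlap and with an adjusted p of 0.407. GRHL2, a transcription factor that maintains epithelial junction genes, overlapped, with a log2 fold change of 0.06. The regulators outside the set were 14 genes, 10 of them tested. With limma and edgeR none was called, and 5 (50%) had an unadjusted p under 0.05 in limma. That share was 16.2% over all features and 21.0% over those averaging 100 or more. DESeq2, which called 3.48% of all features, called PRSS8 (adjusted p = 0.00268) and KLF4 (adjusted p = 0.0488). PRSS8, prostasin, a membrane-anchored serine protease of epithelia, had the smallest p in limma, with 1150.4, 1088 and 983 counts in SW480-KD1, 805, 676 and 724 in SW480-NC and a limma adjusted p of 0.0783.

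Over the 5 lists of related genes, 101 genes were listed, 72 had a row and 52 were tested. With PERP and KRT13 lower, 2 of 52 (3.85%) were called with limma, beside 0.802% of all features. The lists were chosen with earlier results of these data known.

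The members without a row were CLDN7, CLDN12, CLDN15, F11R, CDH1, CDH3, CTNND1, KRT18 and ESRP2, 9 of 41 (22.0%). Among all annotated protein-coding genes, 7459 of 19951 (37.4%) had no row under their Ensembl identifier. E-cadherin, encoded by CDH1, and P-cadherin, encoded by CDH3, are neighbours on chromosome 16, 14608 bases apart. The table also holds 33265 loci named by a transcript assembler, without gene names. Reads of these 9 genes may be counted in such loci, and they were not analysed here. The main cadherin of the adherens junction, its partner p120-catenin (CTNND1) and the main partner of KRT8 therefore have no value.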

How the data were processed

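Libraries were made with the NEBNext Ultra RNA kit, which does not mark strand, and sequenced on an Illumina HiSeq. Per the labels, the submitters' processing notes name bcl2fastq, HISAT2, DESeq2 and GRCh38. The paper names Cuffdiff for its own test. The annotation and the counting tool are not given in the sources used here. The deposited table holds, as a signal per feature, counts scaled by the authors with 1 size factor per library. It covers 59192 features (25927 Ensembl identifiers, 25595 of them with a symbol, and 33265 assembler loci). In each library 100% of values were whole multiples of 1 step (tolerance 0.01 reads), which gave the reads, 33221323 to 39802365 per library. A count of 0 allows up to 3 reads, for counting error only.

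All 6 libraries entered 1 two-sided comparison with limma 3.58.1 (R 4.3.3), fitted to log2(normalized count + 1) under an intensity trend, over 21703 features with a mean of at least 10, with Benjamini-Hochberg adjustment over all of them. Fold changes on this scale understate those of low genes. Levels per kilobase used all merged exons of GENCODE 29, so shares of a class depend on the annotated exon lengths. The steps were tested on simulated data. Alternatives were a pseudocount of 5, no filter, a mean of at least 50, quantile normalization, rescaling by the median of ratios, no intensity trend, Ensembl features only, a block for the replicate number, omission of each library in turn, and edgeR 4.0.16 and DESeq2 1.42.0 on the recovered reads. edgeR called 136 (0.627%) and DESeq2 756 (3.48%) of the features tested. P-values measure the spread between these libraries only. Figures were drawn with matplotlib 3.10.9.

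The members, the lists of other genes and the tests were chosen with earlier results of these data known. Values in every library are given for members with an unadjusted p under 0.05, for EPCAM and KRT8, for the member with the highest mean of each class and for members under the filter. From each other list the called genes, or else the gene with the smallest p, are named. Genes named outside this rule, such as CLDN4 and CLDN3, were chosen after their values were seen.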

Additional observations from a re-analysis of the deposited data

How the results depend on the processing

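KRT20 stayed lower and called under each alternative except no intensity trend (adjusted p = 0.0859) and the replicate block (0.0610). Of the members, 2 were called, 3 with DESeq2, 1 with edgeR, 1 after quantile normalization, 0 without the intensity trend, 0 with the replicate block and 1 to 1 with a library left out. Over all features, calls numbered 11 without the trend, 12 with the block, 119 after quantile normalization, 232 with no filter, 217 with a mean of at least 50 and 36 to 104 with a library left out, the fewest without SW480-NC replicate 2. The deviations of same-numbered libraries had correlations of -0.0202 to 0.00741 between the lines. Whether the replicate numbers pair the samples was not tested. Of the related genes outside the set, 2 were called, 6 with DESeq2 (NECTIN4, CDH24, PERP, KRT13, KLF4 and PRSS8), 0 without the trend, 0 with the block and 0 to 1 with a library left out. The members' median log2 fold change was -0.0577 with a mean of at least 50, -0.0577 with no filter and -0.0744 to -0.0214 with a library left out. HPSE, at -0.83, passed with DESeq2 (-0.83, adjusted p = 0.000948), Ensembl features only (-0.83, 0.0462), a mean of at least 50 (-0.83, 0.0460) and no filter (-0.83, 0.0451), and its left-out range was -0.93 to -0.76. The causes were not tested. None of these results changed direction, and the 0 members past 2-fold stayed 0 under each alternative run. With 3 libraries per line, changes as small as those of most members could not be told from the spread.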

Other observations

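Mesenchymal genes were read beside the epithelial set. Of 11 listed, 5 were tested. None was called with limma or edgeR, and 3 (60%) had an unadjusted p under 0.05 in limma, beside 16.2% of all features. DESeq2, which gave an adjusted p for 3 of the tested genes, called none. VIM had low counts, with 59.4 to 61.4 counts in SW480-KD1 and 36.7 to 44.5 in SW480-NC, and its limma adjusted p was 0.228. FN1, fibronectin, had 30037 ± 2319 and 25826 ± 2054 counts (SD, n = 3, limma adjusted p = 0.245). ZEB1, a repressor of epithelial genes, had the smallest p of the list, with 5.27, 17.2 and 13.2 counts in SW480-KD1 and 35.6, 23.2 and 31.8 in SW480-NC, with the log2 fold change at -1.39 (SE 0.46) and a limma adjusted p of 0.215. VIM and FN1 were named after their values were seen.

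Among the cell type markers the smallest p of each list belonged to VIL1, COL1A1, VWF and LYZ. VIL1, villin of the brush border, had a log2 fold change of 0.20 (limma adjusted p = 0.225), and COL1A1 had 0.48 (limma adjusted p = 0.297). VWF had at most 19.0 counts in any library and a limma adjusted p of 0.465. LYZ had 62020.2, 59444 and 62190.0 counts in SW480-KD1 and 69669, 71954 and 67163 in SW480-NC, without overlap and with a limma adjusted p of 0.133. KLF4, a factor of differentiated colon cells chosen after its values were seen, had 524, 429.9 and 175 counts in SW480-KD1 and 757, 766 and 627 in SW480-NC. The lines did not overlap, and its adjusted p was 0.226 with limma and 0.0488 with DESeq2.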
